A study of Mus musculus with 35 samples.

Results

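C6AE and AE are 2 chemical treatments of mouse embryonic fibroblasts (MEFs) that both lack Forskolin, and their ATAC-seq was compared on day 4 of treatment. The members are the 4 ATAC-seq libraries labelled AE or C6AE, 2 per treatment, out of 35 samples in the series and 14 ATAC-seq libraries, together with the AE and C6AE columns of a table of 36431 open regions. The letters name the chemicals. AE holds AM580 (A), an agonist of the retinoic acid receptor, and EPZ004777 (E), an inhibitor of the histone methyltransferase DOT1L. C6AE holds the same 2 chemicals plus CHIR99021 (C), an inhibitor of the kinase GSK3, and compound 6, an inhibitor of a TGF-beta receptor kinase. The comparison therefore asks what CHIR99021 and compound 6 did together to open chromatin where no Forskolin, an activator of adenylyl cyclase, was given. It cannot give the part of either chemical alone. The other ATAC-seq treatments are Basal, Ctr, 6FAE, CFAE and C6FAE, with F for Forskolin. The sources used here do not say what AE or Basal held besides the letters. The methods call the Ctr and C6FAE libraries biological repeats, and whether the 2 libraries of AE or of C6AE came from separate cultures is not given in the sources used here.

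ATAC-seq reads out where DNA is open, since a transposase cuts and tags the DNA that nucleosomes do not cover. Promoters of active genes, which carry H3K4me3, tend to be open in most cells, whereas distal elements open and close with cell type and signal. H3K27me3 is laid down by Polycomb complexes on developmental genes that are held silent in fibroblasts. Inhibition of GSK3 stabilises beta-catenin, the effector of canonical Wnt signalling, and inhibition of the TGF-beta receptor kinase lowers SMAD signalling, which maintains the mesenchymal program of fibroblasts. Opening of closed chromatin is an early step when a fibroblast is turned into another cell type.

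The AE libraries held 4429869 and 5357318 tags (replicates 1 and 2), and the C6AE libraries 5581464 and 3346418. C6AE replicate 2 was the shallowest of the 14 ATAC-seq libraries, which reached 8764791 tags. It stood apart from the other AE and C6AE libraries in other ways too. Its peak list had 810 peaks with a -log10 q of at least 1.3, the counterpart of q at most 0.05, against 3810 in C6AE replicate 1, 7048 in AE replicate 1 and 5174 in AE replicate 2. The median length of its 20000 peaks with the highest score, called leading peaks here, was 357 bp, against 872 bp in C6AE replicate 1 and 951 and 928 bp in AE. By the counts above, most leading peaks of each AE and C6AE library do not reach that q. Of the libraries outside the comparison, 6FAE replicate 1 came nearest, with 1027 peaks at that q and leading peaks of 490 bp. It is part of the merged 6FAE column. The table gives 1 merged column per treatment in RPKM, so a difference between its columns has no replicate error and no test. The methods describe RPKM as reads per bin, scaled to length and mapped reads. How bins became values of regions is not given in the sources used here. Exact permutation of 2 libraries against 2 has 0.333 as its smallest two-sided p, so library values are given side by side.

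On the deposited scale, open regions were lower in C6AE than in AE across the genome. The median RPKM over regions was 16.4 in AE and 12.2 in C6AE. Of the other 5 columns, Ctr lay at 11.6, 6FAE at 14.3, Basal at 14.6, C6FAE at 17.7 and CFAE at 18.5, so AE and C6AE stood on either side of Basal. The difference C6AE minus AE of log2(RPKM + 1) had a median of -0.37 (95% interval over regions -0.38 to -0.37), a ratio of 0.772, with quartiles at -0.77 and 0.06. Only 27.8% of the regions had a higher value in C6AE. The shift was of similar size on each chromosome: medians ran from -0.41 to -0.34 over 20 chromosomes. The 2 mitochondrial regions of the table shifted as far, by -0.34 and -0.41 (RPKM 13251 in AE and 10445 in C6AE in the first, 10006 and 7539 in the second). Summed over all nuclear regions, RPKM times length was 0.757 of the AE value in C6AE, 0.765 in Ctr and 0.866 in Basal. A lower share of reads inside the listed regions and less open chromatin per cell cannot be told apart in these values.

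At a threshold of 2-fold on the scale of log2(RPKM + 1), 1989 regions were higher in C6AE (5.46% of all regions) and 5704 were lower (15.7%). Regions higher in C6AE thus made up 25.9% of the 7693 changed regions (Wilson 95% interval 24.9 to 26.8%). This split depended on the scale. With each column centred on its own median, which removes the shift common to all regions, 3783 regions were higher (10.4%) and 2435 lower (6.68%), and 60.8% of the changed regions were higher (59.6 to 62.0%). With the columns brought to one distribution by quantile normalization the share was 48.3%. These data therefore give no direction for the balance of opening and closing that holds on every scale. The SD of the difference over regions was 0.787. Near the threshold, 625 regions lay within 0.1 of the limit for higher regions and 2408 within 0.1 of that for lower regions, as deposited.

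**Figure D1:**
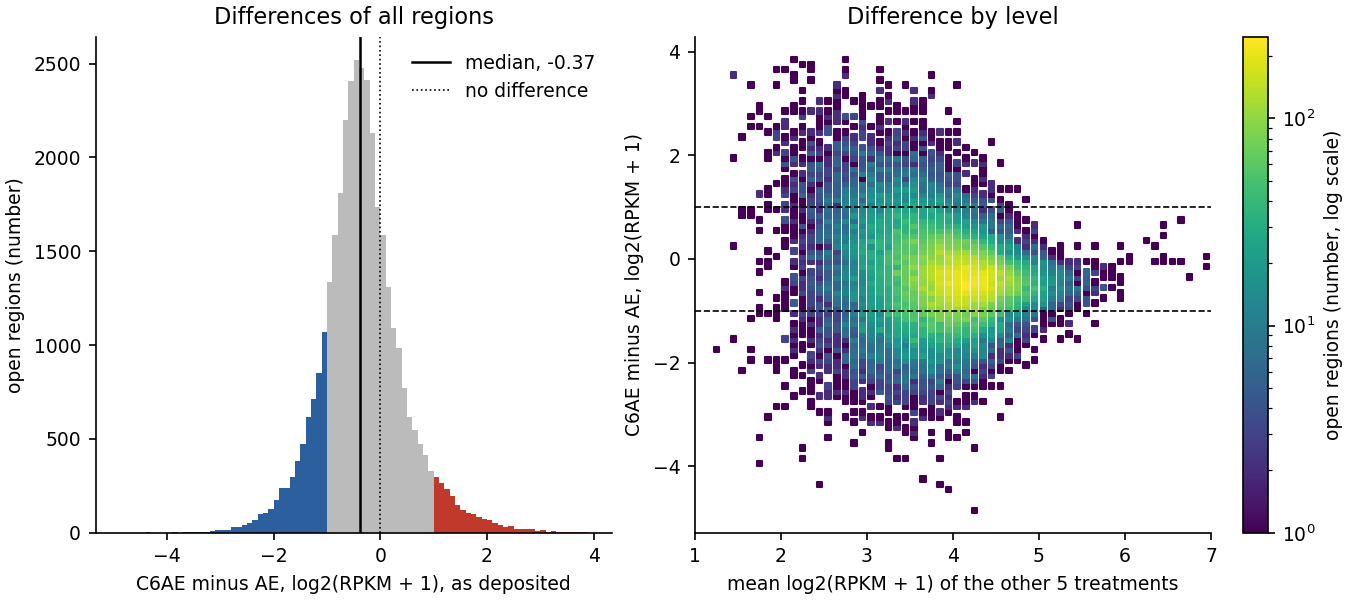
Left, number of open regions by the difference C6AE minus AE of log2(RPKM + 1) as deposited, with the regions at least 2-fold higher in red and lower in blue, the median (-0.37) as a solid line and no difference as a dotted line. Right, the difference against the mean log2(RPKM + 1) of the other 5 treatments, with shade for the number of regions on a log scale and dashed lines at 2-fold; the axis ends at 7, and the spread narrows as the level rises.

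Regions higher in C6AE were mostly weak, regions lower in C6AE were found at all levels, and both were shorter than the rest. The regions were put in 5 classes of equal number by their level in the 5 columns outside the comparison. In the weakest class, the median RPKM was 7.47 in AE and 7.43 in C6AE, the SD of the difference was 1.13, 16.9% of regions were higher and 20.0% were lower. In the strongest class, the median RPKM was 25.4 in AE and 18.3 in C6AE, the SD was 0.445, 0.357% were higher and 9.50% were lower. Of the 1989 higher regions, 1229 lay in the weakest class and 26 in the strongest, while the 5704 lower regions were spread over the 5 classes, from 1458 in the weakest to 692 in the strongest. The median difference went from -0.07 in the weakest class through -0.32, -0.39 and -0.43 to -0.45 in the strongest, so the shift towards AE was seen least where chromatin was least open. After centring, the same 5 medians were 0.33, 0.09, 0.01, -0.02 and -0.04. Regions higher in C6AE had a median length of 765 bp and lower regions of 1004.5 bp, against 1478 bp over all regions and 1747.5 bp over the regions that changed less than 2-fold. The reads behind each value are not given in the table, so the part of counting error in the changes of short or weak regions was not tested.

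The merged C6AE column was not close to any one of the others. Over the 36431 regions, Pearson's r of log2(RPKM + 1) was 0.494 between AE and C6AE. AE was most like Basal (r = 0.670). C6AE was most like 6FAE (0.543), CFAE (0.534) and C6FAE (0.509), and less like Basal (0.482) and Ctr (0.455). These correlations are across regions, which are not independent replicates, and the columns differ in depth.

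The higher and lower regions were then followed in the 5 columns that did not choose them. Regions higher in C6AE were weak in every other treatment. Their median RPKM was 4.01 in AE and 13.8 in C6AE, the values that chose them. It was 6.46 in Ctr and 7.57 in Basal, and 9.44 in 6FAE, 10.5 in CFAE and 10.7 in C6FAE. All 5 lay between AE and C6AE, and the 3 treatments with Forskolin lay above Ctr and Basal. Against the median of all regions of the same column on the log2(RPKM + 1) scale, however, they lay at -0.86 in Basal, -0.75 in Ctr, -0.56 in 6FAE, -0.77 in CFAE and -0.68 in C6FAE, which left no common order by Forskolin.

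Regions lower in C6AE had levels near or below those of the median region elsewhere. Their median RPKM was 21.8 in AE and 7.42 in C6AE, the values that chose them, and 14.9 in Basal, 10.8 in Ctr, 12.6 in 6FAE, 16.2 in CFAE and 13.7 in C6FAE. On the centred scale they lay 0.03 above the median region of Basal, and below that of Ctr, 6FAE, CFAE and C6FAE, with values of -0.09, -0.17, -0.18 and -0.34. The lowest of the 5 centred values was in C6FAE, which also held both CHIR99021 and compound 6, but as deposited the lowest was in Ctr. C6FAE was also the column with the lowest correlation with AE (r = 0.453). The part of the chemicals in this order was not tested.

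**Figure D2:**
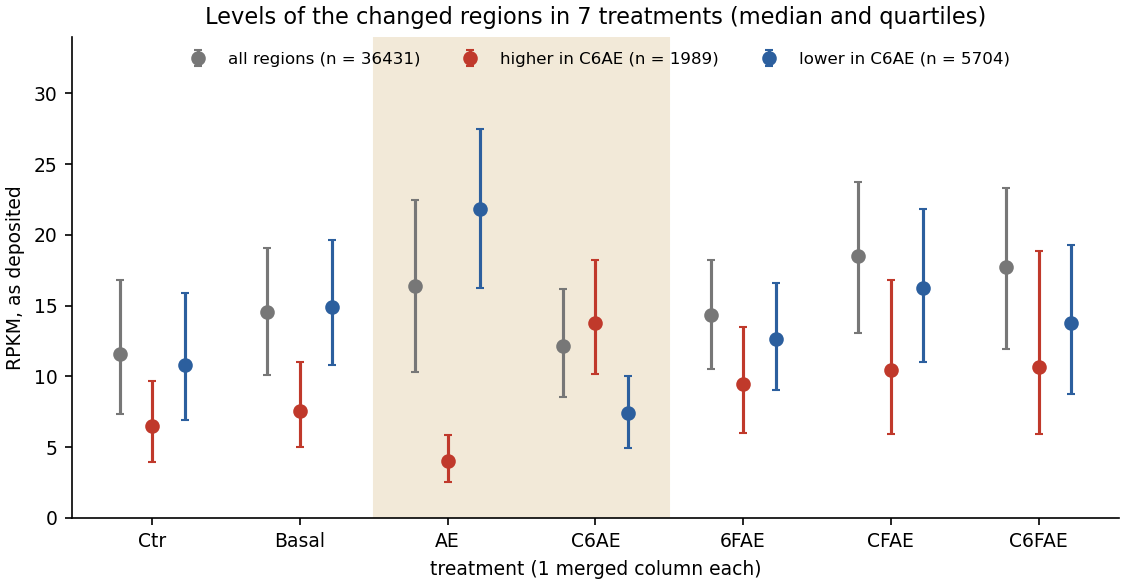
RPKM as deposited in the 7 merged columns (x axis) for all regions, the 1989 regions higher and the 5704 regions lower in C6AE than in AE; points are medians and bars run between the quartiles. The shaded columns chose the regions; in the other 5, the higher regions have medians of 6.46 to 10.7 and the lower regions of 10.8 to 16.2.

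Libraries outside the comparison gave a second readout of these regions, from the authors' own peaks. A region was counted in a library when a leading peak of that library overlapped it by at least 1 bp. Over all regions this share was 38.5% and 34.1% in AE and 32.0% and 21.1% in C6AE. Of the regions higher in C6AE, 0.302% and 0.201% had a leading peak in the AE libraries, 16.5% in C6AE replicate 1 and 31.9% in C6AE replicate 2. The value in C6AE replicate 1 was thus below that library's share over all regions (a ratio of 0.516), and only in C6AE replicate 2 was it above (1.51). In the 10 other libraries the share of these regions was below that of all regions without exception. It was 7.79% and 6.89% in the Basal libraries, where all regions had 37.5% and 38.7%, and 6.18% and 4.73% in Ctr, where all regions had 29.5% and 23.7%. With Forskolin it was 5.43% and 17.5% in 6FAE (all regions 21.0% and 46.7%), 12.9% and 13.4% in CFAE (40.7% and 45.1%) and 20.8% and 13.1% in C6FAE (47.5% and 35.1%). Relative to all regions, the share was 0.178 to 0.210 in the 4 Basal and Ctr libraries and 0.258 to 0.437 in the 6 libraries with Forskolin, with no overlap between them. The 6 libraries also all hold AM580 and EPZ004777 and at least 1 of CHIR99021 and compound 6, so the chemicals cannot be told apart in this split.

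Regions lower in C6AE had a leading peak in 49.8% and 38.0% of cases in AE replicates 1 and 2, and in 11.9% and 3.40% in C6AE. Both AE libraries were above their shares over all regions (ratios of 1.29 and 1.12) and both C6AE libraries below (0.371 and 0.161). In the 10 other libraries the share ran from 10.9% in 6FAE replicate 1 (all regions 21.0%) to 31.7% in Basal replicate 1 (37.5%). It was below the share over all regions in each of the 10, with ratios of 0.517 to 0.846. The Basal libraries came closest to their share over all regions, with ratios of 0.846 and 0.812.

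**Figure D3:**
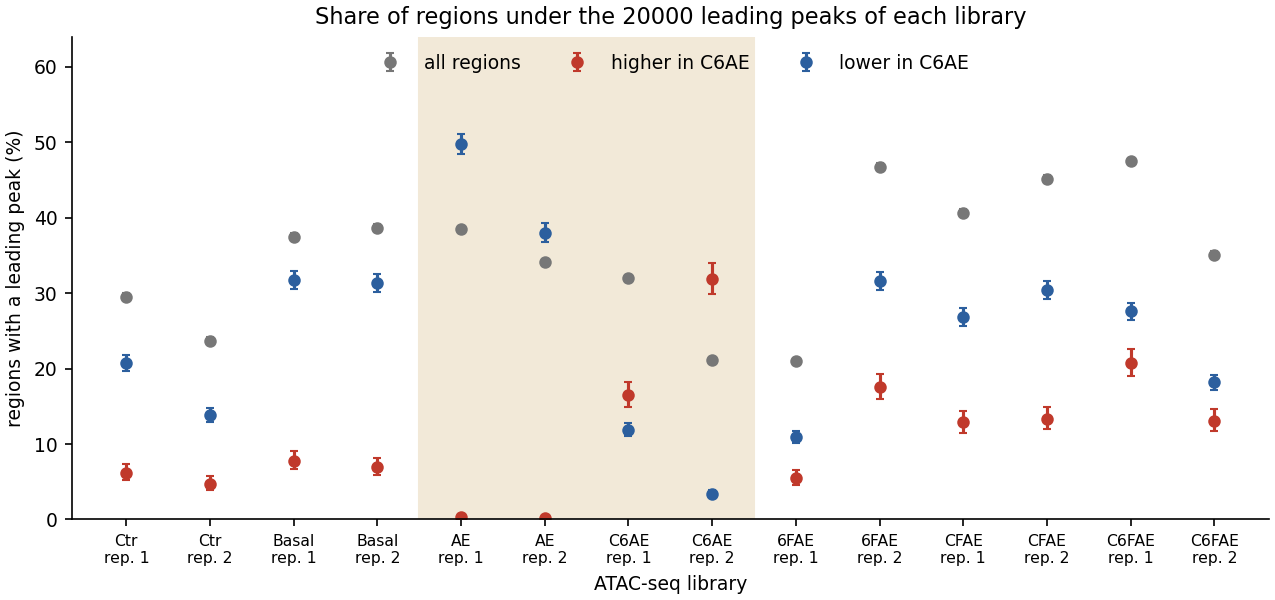
Percentage of regions overlapped by one of the 20000 leading peaks of each of the 14 ATAC-seq libraries, for all regions and for the regions higher or lower in C6AE; bars are Wilson 95% intervals over regions. The 4 shaded libraries made the columns that chose the regions; the higher regions exceed all regions only in C6AE replicate 2.

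The changed regions were also described by single libraries. The fold enrichment that the peak caller listed, taken as 0 where no peak overlapped, was above both AE libraries in both C6AE libraries in 753 of the 1989 higher regions (37.9%). Over all regions this held in 7.88%. It was above both C6AE libraries in both AE libraries in 3702 of the 5704 lower regions (64.9%), against 29.1% of all regions. Since the same libraries make up the columns that chose the regions, these counts describe the regions and are no test of them.

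Peaks were next compared between single libraries, with the same number of leading peaks in each. The 2 AE libraries shared 44.9% of their leading peaks, and the 2 C6AE libraries 23.6%. AE replicates 1 and 2 shared 40.4% and 38.5% with C6AE replicate 1, and 25.5% and 24.8% with C6AE replicate 2. The C6AE libraries were thus less like each other than C6AE replicate 1 was like either AE library. Among all 7 treatments, the replicates shared between 23.6% (C6AE) and 55.6% (CFAE) of their leading peaks. C6AE replicate 2 shared 19.0 to 28.3% with the 10 libraries of the other treatments, below the 26.0 to 47.3% of C6AE replicate 1. With every peak set to 1000 bp around its middle, the same order was kept: 41.1% between the AE libraries, 36.7% and 34.1% between AE and C6AE replicate 1, and 21.5% between the C6AE libraries.

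Merging the leading peaks of the 4 libraries gave 54884 peaks, of which 41610 came from a single library. Both C6AE libraries and neither AE library had a peak in 390 of them, and both AE libraries and neither C6AE library in 2020. All 4 libraries had a peak in 3549. AE-specific peaks outnumbered C6AE-specific peaks in each of the 4 other peak sets tried. Each count needs a peak in both libraries of a treatment, and the C6AE libraries shared 23.6% of their leading peaks against 44.9% in AE. The rule therefore favours a lower C6AE count, and the counts give no balance of gained and lost peaks. With all listed peaks, the counts were 21400 for C6AE and 34494 for AE. Leaving out a library turns a peak in both libraries of a treatment into a peak in 1, so the counts then compare 1 library with 2. Without C6AE replicate 2, 10527 peaks were found in C6AE replicate 1 and neither AE library, and 2611 in both AE libraries and not in C6AE replicate 1. Without C6AE replicate 1, the counts were 14008 and 4737.

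Peaks that differed between 1 library of each treatment were looked for in the remaining 2 libraries. Of 11920 leading peaks present in AE replicate 1 and absent from C6AE replicate 1, 22.5% (Wilson 95% interval 21.8 to 23.3%) were found in AE replicate 2 and 9.35% (8.84 to 9.89%) in C6AE replicate 2. Of 15099 peaks present in AE replicate 2 and absent from C6AE replicate 2, 32.0% (31.2 to 32.7%) were found in AE replicate 1 and 25.3% (24.6 to 26.0%) in C6AE replicate 1. Peaks of AE were therefore found more often in the other AE library in both pairs. Peaks of C6AE were not. Of 11940 peaks present in C6AE replicate 1 and absent from AE replicate 1, 6.11% (5.70 to 6.56%) were found in C6AE replicate 2 and 11.8% (11.3 to 12.4%) in AE replicate 2. Of 14981 peaks present in C6AE replicate 2 and absent from AE replicate 2, 5.69% (5.33 to 6.07%) were found in C6AE replicate 1 and 6.49% (6.11 to 6.90%) in AE replicate 1. The intervals cover counting error over peaks only. In both pairs C6AE peaks were found less often in the other C6AE library than in the remaining AE library. Over all leading peaks, AE replicate 1 shared 44.9% with AE replicate 2 and 25.5% with C6AE replicate 2, the 2 libraries searched for its peaks. For AE replicate 2 these shares were 44.9% with AE replicate 1 and 38.5% with C6AE replicate 1. C6AE replicate 1 shared 23.6% with C6AE replicate 2 and 38.5% with AE replicate 2. C6AE replicate 2 shared 23.6% with C6AE replicate 1 and 25.5% with AE replicate 1. The recurrences thus follow the order of whole libraries and are no result about gained or lost peaks. C6AE replicate 2 was used in both pairs, either to choose peaks or to search for them. The part of its shallower depth and fewer shared peaks in these results was not tested.

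**Figure D4:**
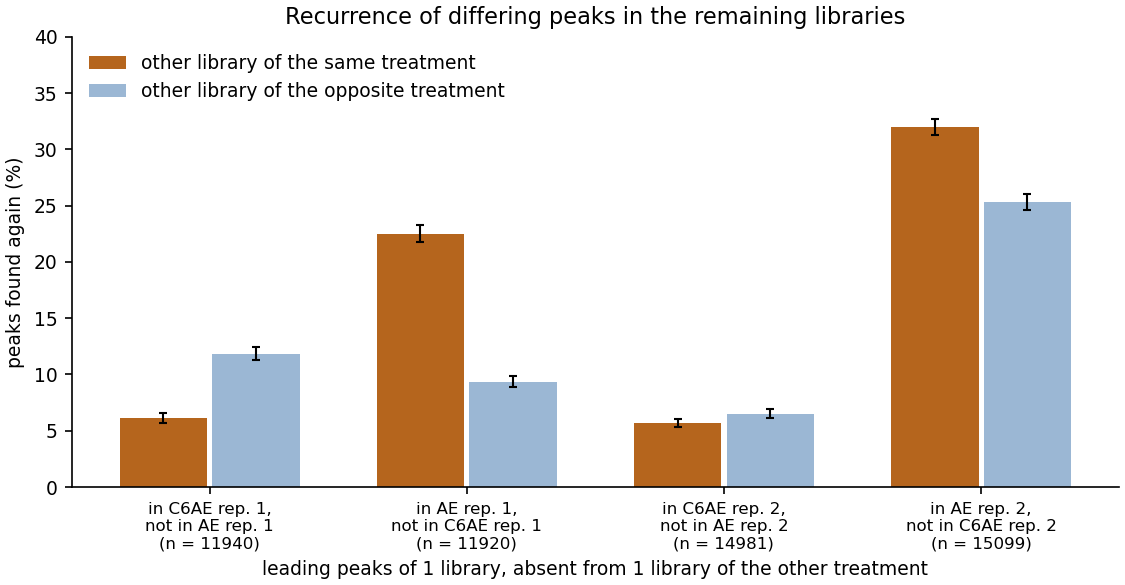
Leading peaks present in 1 library and absent from the library of the same number of the other treatment (x axis), and the percentage of them found in the remaining library of the same treatment (brown) or of the opposite treatment (blue); bars on the columns are Wilson 95% intervals over peaks. AE peaks recur more in AE (22.5 against 9.35%, 32.0 against 25.3%), and C6AE peaks do not recur more in C6AE (6.11 against 11.8%, 5.69 against 6.49%). Over all leading peaks, the libraries searched stand in the same order.

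The same 2 chemicals were also added in the presence of Forskolin, in columns that share no library with AE or C6AE. C6FAE minus 6FAE gives the addition of CHIR99021 and C6FAE minus CFAE that of compound 6, and both share the C6FAE column. Values here are from centred columns. For CHIR99021, the median difference was -0.01 in the regions higher in C6AE (interval -0.06 to 0.04), -0.15 in the lower regions (-0.17 to -0.13) and -0.01 over all regions. For compound 6, it was 0.17 in the higher regions (0.12 to 0.21), -0.12 in the lower regions (-0.14 to -0.10) and 0.01 over all regions. The regions lower without Forskolin thus lay below all regions in both contrasts, and the regions higher without Forskolin lay above all regions in that of compound 6. For the 3783 higher regions chosen after centring, the medians were 0.038 for CHIR99021 (0.0076 to 0.066) and 0.15 for compound 6 (0.12 to 0.18), above all regions in both. The 734 of them with a centred difference above 2 had medians of -0.11 for CHIR99021, below all regions, and 0.17 for compound 6. As deposited, the lower regions had medians of 0.14 for CHIR99021 and -0.18 for compound 6, against 0.28 and -0.05 over all regions.

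These shifts were small beside the differences that chose the regions. Of the higher regions, 12.8% were at least 2-fold higher in C6FAE than in CFAE, where 4.28% of all regions were, but 9.05% were at least 2-fold lower, where 4.84% of all regions were. For C6FAE against 6FAE the same shares were 9.45% higher (3.60% of all regions) and 14.3% lower (6.59% of all regions). Changes in both directions were thus more frequent in these short, weak regions than in all regions. In the contrast of Basal and Ctr, which adds neither chemical, the higher regions had 11.8% higher (7.99% of all regions) and 17.1% lower (7.08%), with a median of -0.11 against -0.07 over all regions. The lower regions had 12.8% higher and 7.63% lower there, with a median of 0.09 (interval 0.06 to 0.11), above all regions. A distance of the lower regions from all regions was thus not limited to the contrasts that add CHIR99021 or compound 6. Over all regions, Pearson's r of C6AE minus AE was 0.077 with the CHIR99021 contrast (Spearman's rho 0.096), 0.124 with the compound 6 contrast (rho 0.130) and -0.079 with Basal minus Ctr (rho -0.074). These are correlations across regions of 1 set of merged columns, and they are weak.

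Histone marks on the same day gave a readout that the choice of regions did not use. Of all open regions, 31.2% overlapped a region of the H3K4me3 table and 9.37% one of the H3K27me3 table. The changed regions were mostly free of H3K4me3, the mark of active promoters. It was present at 48 of the 1989 higher regions, or 2.41% (1.83 to 3.18%), and at 794 of the 5704 lower regions, or 13.9% (13.0 to 14.8%). H3K27me3 was present at 11.8% of the higher regions (10.5 to 13.3%) and at 5.63% of the lower regions (5.06 to 6.26%), on either side of the share over all regions.

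The regions were put in 4 classes by their marks. The 23194 regions with neither mark had a centred median difference of 0.05, the 1879 with H3K27me3 only of 0.27 (interval 0.22 to 0.32), the 1536 with both marks of 0.12 and the 9822 with H3K4me3 only of -0.02. As deposited the 4 medians were -0.36, -0.14, -0.28 and -0.42, so none of the classes was higher in C6AE on that scale. In the class with H3K4me3 only, 0.305% of regions were at least 2-fold higher as deposited and 7.18% lower, against 7.43% and 20.2% in unmarked regions. Regions with H3K4me3 were also longer (median 2922 bp) than unmarked regions (1091 bp) and more open in AE (median RPKM 21.8 against 13.8). Within classes of equal level, unmarked regions were still at least 2-fold different more often than H3K4me3 regions: in the strongest class, 3.34% were higher and 7.18% lower after centring, against 0.654% and 1.03%. Within classes of equal length, this held for higher regions in every class (21.4% against 8.37% in the shortest). Lower regions made up close shares in the shortest class, 14.6% of unmarked and 14.4% of H3K4me3 regions. In each longer class, lower regions were more frequent among unmarked regions, with 8.04% against 2.78% in the middle class.

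Regions with H3K27me3 only lay above unmarked regions of the same level or length. Their centred median exceeded that of unmarked regions by 0.14 to 0.35 in the 5 classes of level and by 0.16 to 0.28 in the 5 classes of length. The single libraries did not bear this out alike. The share of H3K27me3-only regions with a leading peak, relative to all regions of the library, was 0.435 and 0.398 in AE, 0.395 in C6AE replicate 1 and 0.678 in C6AE replicate 2. C6AE replicate 1 was thus below both AE libraries, and the higher value was that of C6AE replicate 2 alone. The same library also had the highest relative share in the weakest class of level among the 14 libraries, 0.561, where the others lay between 0.209 and 0.354. In the presence of Forskolin the H3K27me3-only regions had centred medians of -0.08 for CHIR99021 and 0.07 for compound 6, and against Basal they lay at 0.10 in C6AE and -0.14 in AE.

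**Figure D5:**
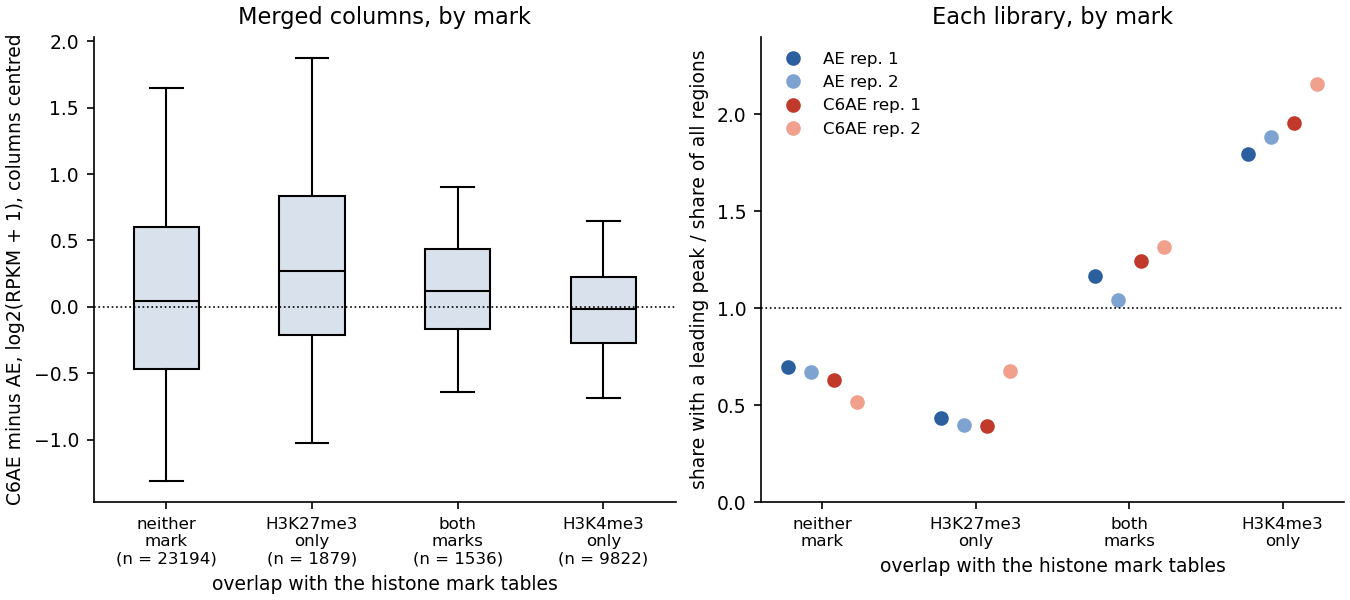
Left, difference C6AE minus AE of log2(RPKM + 1) in centred columns for open regions by overlap with the H3K27me3 and H3K4me3 tables; lines are medians, boxes quartiles and whiskers the 5th and 95th percentiles over regions. Right, share of regions with a leading peak in each library divided by that library's share over all regions; for H3K27me3-only regions, C6AE replicate 2 (0.678) lies above the other 3 libraries (0.395 to 0.435).

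The marks themselves were compared at the changed regions from 1 library per treatment and mark, with no replicate check. The H3K4me3 library of C6AE held 745089 tags against 4577367 in AE, and the H3K27me3 libraries 6392309 and 5537372. At the 235 higher regions with H3K27me3, the median RPKM of the mark was 6.04 in AE and 6.11 in C6AE, and at the 321 lower regions with the mark 6.31 and 6.23. Over all 3415 open regions with the mark it was 6.40 and 5.90. In centred columns the median difference of the mark was -0.15 (interval -0.23 to -0.09) at the higher regions, -0.21 (-0.27 to -0.15) at the lower regions and -0.28 (-0.30 to -0.27) over all open regions with it. Both sets thus lay above all marked regions, in the same direction. Over these 3415 regions, Spearman's rho between the differences in openness and in the mark was -0.023. For H3K4me3, over 11358 regions, rho was 0.105. At the 48 higher regions with H3K4me3, its median RPKM was 16.7 in AE and 26.9 in C6AE, while over all open regions with the mark it was 19.3 and 24.7.

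Changed regions did not lie together along the chromosomes much more than others did. Of the 745 higher regions with another open region within 10 kb, 6.17% had a neighbour that was also higher, against 5.78% of all 15301 regions with a neighbour. For lower regions the shares were 18.7% and 16.5%.

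Regions named by position were taken from those with a peak in both libraries of one treatment and in neither of the other that were 2-fold different on both scales. For increases, 308 regions met this rule, and for decreases 450. The largest increase in the table, 3.84, was at a region that did not meet it. Positions are those of the mouse build mm9 as the authors list them, and the genes at these positions were not assigned here. Among those that met it, the largest increase was at chr13:29692825-29693519, a region of 694 bp with an RPKM of 0.195 in AE and 14.95 in C6AE, a difference of 3.74 in log2(RPKM + 1). Its fold enrichment was 2.04 in C6AE replicate 1 and 3.14 in replicate 2, and its RPKM in the other 5 columns ran from 1.15 in Ctr to 7.49 in CFAE. The third, at chr1:33186794-33187673, overlapped H3K27me3 and had an RPKM of 0.854 in AE and 21.6 in C6AE. The fourth, at chr9:86929823-86930348, had 1.44 in AE and 28.3 in C6AE, and was also high in CFAE (26.99) and C6FAE (22.5) but not in Basal (3.91). It was the only one of the 10 largest such increases with a leading peak in both C6AE libraries.

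The largest decrease that met the rule was at chr5:67785197-67785699, with an RPKM of 34.5 in AE and 0.251 in C6AE, a difference of -4.83. Its RPKM was 42.4 in Basal, 13.7 in Ctr and 10.0 in C6FAE. The second, at chr1:193556539-193557229, fell from 27.2 in AE to 0.298 in C6AE and was the only one of the 10 largest such decreases with a leading peak in both AE libraries. It had an RPKM of 12.4 in Basal, 12.5 in Ctr and 15.3 in C6FAE. The 10 increases had RPKM of 0.195 to 2.18 in AE and of 12.4 to 30.8 in C6AE, and the 10 decreases of 23.3 to 37.8 in AE and of 0.251 to 2.13 in C6AE. All 20 regions were short, 502 to 919 bp, and none overlapped H3K4me3. In 7 of the 10 increases and 9 of the 10 decreases, the other 5 columns all lay between AE and C6AE. Since the regions were chosen as extremes of AE and C6AE, the choice itself favours this, and the counts are no test. With the chemicals added to Forskolin, 3 of the 10 increases and 4 of the 10 decreases were higher in C6FAE than in 6FAE after centring, where 49.6% of all regions were. For C6FAE against CFAE, 5 of the 10 increases and 4 of the 10 decreases were higher, where 51.3% of all regions were.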

How the data were processed

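ATAC-seq of MEFs was measured on day 4 in 2 libraries for each of 7 treatments. Per the submitters' processing notes, the file headers and the methods, the authors aligned reads to mm9 with Bowtie2 (version not given in the sources used here), ran MACS 2.1.2 on every library separately (broad mode, p-value limit of 0.05, neither a control nor a local lambda), and computed RPKM with deepTools 3.1.0. The deposited RPKM table holds 1 column per treatment, merged over libraries. How its regions were chosen is not given in the sources used here. The deposited peak lists give the pileup signal in tags, -log10 p, -log10 q and fold enrichment (a ratio over the modelled background). Their headers say that q was not calculated, yet the column holds values. It was used as listed. Not used were 2 ChIP-seq columns titled Ctr, whose 3 samples carry the treatment C6FAE in their labels, and the remaining ChIP-seq peak lists.

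Differences of log2(RPKM + 1) were counted at 2-fold as deposited and with columns centred on their medians (Python 3.11.15, numpy 2.4.6, pandas 2.3.3, scipy 1.17.1). Peaks were ranked by -log10 p within each library. A peak or region overlapped another by at least 1 bp. No test across libraries was possible in the merged table, and counting was tested on simulated data. Intervals of shares are Wilson 95% intervals, and those of medians are from order statistics over regions. Both cover counting error only. Regions named by position had a listed peak in both libraries of the higher treatment and in neither of the other, and were the 10 largest in each direction. Members and lists were chosen with earlier results of these data known. Alternatives were other pseudocounts, scalings, filters, peak numbers, overlaps and libraries. Genes and sequences at the regions were not analysed here.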

Additional observations from a re-analysis of the deposited data

How the results depend on the processing

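No paired analysis was possible because the merged columns carry no replicate numbers and the results come from no test. As a check of the numbers, the differences between replicates 1 and 2 of AE and of C6AE correlated over regions with r = -0.0087. Of 85 values under other settings, over 16 results, 23 stayed within their limits (a factor of 1.5 for counts, the 95% interval for shares and medians), 57 moved and 5 changed sign. The merged values have no replicate error, and the depth of the shallowest library, C6AE replicate 2, moved with the low recurrence in C6AE, in which its part was not tested.

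The median difference of -0.37 was -0.40 with a pseudocount of 0.1, -0.23 with 10 and -0.43 without the 25% of regions of lowest mean RPKM. It changed sign to 0.030 with centring on the median, 0.0055 with quantile normalization and 0.081 with centring on the most open regions. Higher and lower regions numbered 320 and 1254 with a pseudocount of 10, 3783 and 2435 with centring, 4083 and 2162 with centring on the most open regions and 3846 and 12992 at 1.5-fold. Lower regions numbered 3188 with quantile normalization, and higher regions 592 without the weakest regions. The share of higher among changed regions was 20.3% with a pseudocount of 10, 60.8% with centring, 48.3% with quantile normalization, 65.4% with centring on the most open regions, 12.5% without the weakest regions and 22.8% at 1.5-fold.

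Merged peaks of both C6AE libraries only and of both AE libraries only numbered 21400 and 34494 over all listed peaks, 17 and 1268 for peaks whose listed -log10 q reached 1.3, 216 and 581 with 5000 leading peaks and 1485 and 3948 with 50000. Leaving out 1 library at a time gave 723 to 14008 and 2611 to 11275.

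The recurrence of C6AE peaks in C6AE was 16.3% with 5000 leading peaks (26.7% in AE), 3.28% with an overlap of 50% (12.4%) and 5.69% when chosen in replicates 2 (6.49%). That of AE peaks in AE was 30.7% with 5000 leading peaks (16.0% in C6AE), 15.5% with 50000 (7.59%), 20.9% with an overlap of 50% (5.04%), 32.0% when chosen in replicates 2 (25.3%) and 21.6% when chosen in C6AE replicate 1 and AE replicate 2 (8.30%). After seeing the data, peaks set to 1000 bp (7.70% against 12.9% for C6AE, 23.6% against 11.5% for AE) and the choice in C6AE replicate 2 and AE replicate 1 (5.34% against 5.72%, 32.5% against 27.8%) were added. In each of these, AE peaks recurred more in AE and C6AE peaks did not recur more in C6AE. In the main setting, the sharing of all leading peaks between libraries had the same order.

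In the regions higher in C6AE, the deposited median of C6FAE minus 6FAE was 0.28; it was -0.0089 with centring and 0.034 with a pseudocount of 10. In the lower regions it was 0.14, and -0.15 with centring, 0.090 in regions chosen after centring and 0.033 with a pseudocount of 10. For C6FAE minus CFAE, the higher regions had 0.11, and 0.17 with centring and 0.036 with a pseudocount of 10, and the lower regions -0.18, and -0.12 with centring and -0.23 in regions chosen after centring. H3K4me3 lay at 4.65% of higher and 6.49% of lower regions chosen after centring, and H3K27me3 at 4.68% of lower regions so chosen and at 4.45% with an overlap of 50%. The cause of these changes was not tested.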
